A study of Mus musculus with 12 samples.

Results

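Transcript levels of 10 genes of the NF-kB system were followed in cultured mouse microglia after oxygen-glucose deprivation (OGD) and after recovery from it. The genes were taken as a named list from a count table of 55421 genes, and all 10 were found in it and passed the filter on low counts. They were the 5 subunits (Nfkb1, Nfkb2, Rel, Rela and Relb), the cytoplasmic inhibitors Nfkbia and Nfkbie, the nuclear inhibitor-like cofactors Nfkbiz and Bcl3, and the ubiquitin-editing enzyme gene Tnfaip3. NF-kB transcription factors are dimers of the subunits. In resting cells inhibitors of the I-kappa-B family hold them in the cytoplasm, and signals from receptors such as those for TNF, interleukin 1 and microbial products lead to phosphorylation and breakdown of the inhibitor and to entry of the dimer into the nucleus. Several inhibitor genes are themselves targets of NF-kB, which closes a feedback loop, and in microglia the pathway is known for driving cytokine and chemokine genes after injury.

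The cells were microglia, the resident macrophages of the brain, sorted from mice and cultured for 6 h in OGD, which deprives them of oxygen and glucose as a model of ischaemia. They were taken at once (OGD) or after 24 h of recovery. The control genotype (here WT) was Cx3cr1EGFP, in which a green reporter marks cells that use the Cx3cr1 gene. The knockout (KO) was Slc2a5-/-::Cx3cr1EGFP, which lacks the fructose transporter GLUT5, so both genotypes carried the reporter allele. Its zygosity was not given in the sources used here. All mice were labelled male, and their age was given as postnatal day 35 to 40 in one label and 30 to 45 in another. Each of the 4 groups (WT-OGD and WT-recovery, KO-OGD and KO-recovery) held 3 libraries. For WT-recovery replicate 1 the treatment field named no recovery, and the title was followed. Whether replicates are separate animals or cultures is not stated in the labels, so p-values reflect the spread among these libraries alone, and that spread may be technical. Cells without OGD were not analysed here.

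Total counts lay between 9885259 and 45347118 per library, with every recovery library below every OGD library. Slc2a5, the targeted gene, had 45, 40 and 58 counts in WT-OGD, while the KO-OGD libraries had 17, 4 and 17. After recovery WT had 1, 2 and 0 counts of it, KO had 1, 0 and 0, and so the genotype label could not be checked by this gene after recovery. Of the microglial markers, Csf1r and Cx3cr1 were present in every library, while Tmem119 did not exceed 2.74 CPM (counts scaled by library size) and Siglech was at 0 in all groups but KO-OGD. Several libraries went against their labels or stood apart. Xist, the X-inactivation transcript of female cells, was at 0 to 0.183 CPM in WT-recovery and at 151 to 354 CPM in the other 9 libraries. The Y-linked gene Ddx3y had 14.7 to 49.7 CPM over all 12 libraries, lower in every KO library than in every WT library. KO-recovery replicates 1 and 3 held skeletal muscle actin Acta1 at 37.6 and 36.4 CPM, against at most 0.980 CPM in the other libraries. WT-recovery replicate 1 and KO-recovery replicate 2 had the highest mitochondrial shares, 18.4% and 10.5% of counts. Values without the libraries with muscle transcripts, or without those of high mitochondrial share, are given below for many of the calls that change, not for all. The WT-recovery libraries are the whole of their group, so no result after recovery in WT can be given without them.

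The promoters of the inhibitor genes are shown first. They were searched for the kappa B consensus decamer, the class of sequence that NF-kB dimers bind. RefSeq promoter windows (GRCm38.p6, 250 bases before each start, strand of the gene) were found for 7 of the 10 genes and not for Nfkb1, Relb and Nfkbiz. Both strands were searched for the consensus, and capitals mark a match. The windows of both cytoplasmic inhibitor genes held 1 match each, at chr12:55492648-55492897 (minus strand) for Nfkbia and chr17:45555450-45555699 (plus strand) for Nfkbie:
Nfkbia: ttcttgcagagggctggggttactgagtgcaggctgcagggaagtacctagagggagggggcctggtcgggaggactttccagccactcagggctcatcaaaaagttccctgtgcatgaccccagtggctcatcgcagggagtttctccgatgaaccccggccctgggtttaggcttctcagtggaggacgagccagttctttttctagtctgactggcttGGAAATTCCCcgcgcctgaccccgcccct
Nfkbie: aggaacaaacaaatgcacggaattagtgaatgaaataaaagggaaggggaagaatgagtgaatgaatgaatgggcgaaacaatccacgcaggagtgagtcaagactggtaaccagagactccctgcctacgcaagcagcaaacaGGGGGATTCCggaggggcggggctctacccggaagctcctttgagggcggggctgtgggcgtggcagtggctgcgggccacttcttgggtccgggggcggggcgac
The Nfkbia match covers bases 29 to 20 before the start and fits the consensus when read on the opposite strand. That of Nfkbie covers bases 106 to 97. Rel held overlapping matches in GGGAAATCCC and GGAAATCCCC, starting 92 and 91 bases before its start. One of the 2 windows of Tnfaip3 held GGAAATCCCC 12 bases before the start and GGGACACCCC 125 bases before it. All 3 windows of Nfkb2 held a match, among them GGGAATTCCC 39 bases and GGGGCTTTCC 11 bases before the first of its starts. The windows of Bcl3 and Rela held none. Thus 5 of 7 genes held a match, against 4.46% of 27025 genes and 3.9% of 32851 windows in the RefSeq table. The list was chosen from the NF-kB system, which holds known NF-kB targets, so this difference is not a result of these data. A match describes letters in a window and is not a measured binding site. Of the genes with a match, Nfkbia and Nfkbie rose with recovery in WT and Nfkb2 fell. The bearing of the matches on the levels was not tested.

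Per length of gene, the subunit Rela and the inhibitor Nfkbia were the most abundant of the 10 transcripts in each group. In WT-OGD the level per kilobase of exon was 24.8 ± 0.925 CPM (SD, n = 3) for Rela and 20.2 ± 0.254 for Nfkbia. Nfkb2 at 11.4 ± 0.443 and Relb at 11.03 ± 0.640 came next on this scale, with overlapping ranges, and Nfkb1 followed at 7.02 ± 0.133. Below them lay Tnfaip3, Bcl3, Nfkbiz, Nfkbie and Rel, between 4.22 and 2.85 CPM per kilobase. Neighbours in this order had ranges that did not overlap, except Nfkb2 with Relb, Bcl3 with Nfkbiz and Nfkbie with Rel. The place of Nfkb1 depended on its length: with the longest transcript (4149 bases) in place of all exons (12061 bases) it moved from the fifth place to the third. KO-OGD had the same order, but with the longest transcript Nfkb1 came second there, at 19.8 CPM per kilobase against 19.7 for Nfkbia.

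**Figure D1:**
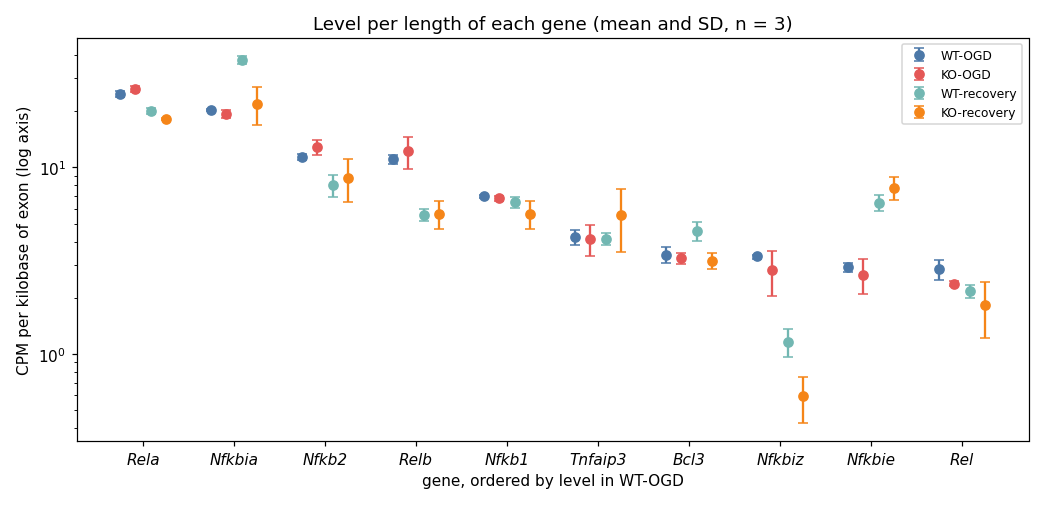
Level per length of the 10 genes. The vertical log axis gives CPM per kilobase of exon, points are group means and bars the SD over 3 libraries, with genes ordered by WT-OGD. Nfkbia passes Rela in WT-recovery (37.5 against 20.1), and Nfkbiz is lowest in both recovery groups (1.16 and 0.591).

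The order changed with recovery. In WT-recovery Nfkbia came first at 37.5 ± 1.92 CPM per kilobase and Rela second at 20.1 ± 0.725, with ranges apart. Nfkbie moved up to the fifth place at 6.45 ± 0.629, where its range overlapped those of Nfkb1 and Relb, and Nfkbiz came last at 1.16 ± 0.199. In KO-recovery Nfkbia at 21.9 ± 5.05 and Rela at 18.2 ± 0.202 had overlapping ranges, as had the 5 genes from Nfkb2 down to Tnfaip3, each with its neighbour. Nfkbiz was again last, at 0.591 ± 0.163 CPM per kilobase, a level above that of 23.3% of the genes tested, against 50.3% in WT-OGD.

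The comparisons ask what loss of Slc2a5 changes after OGD and after recovery, and what recovery changes in each genotype. After OGD, none of the 10 genes passed edgeR's quasi-likelihood test between the genotypes (Benjamini-Hochberg adjusted p below 0.05 over 18842 genes), where 7.49% of all genes did (0.966% higher and 6.52% lower). All adjusted p-values below come from that test. None of the 10 had an unadjusted p below 0.05 either, and DESeq2 called 0. After recovery 3 of 10 were lower in KO and 0 higher, against 22.2% of all genes called in either direction, 10.1% higher and 12% lower. From OGD to recovery 3 rose and 4 fell in WT, against 56.8% of all genes (26.9% higher, 29.9% lower), and 1 rose and 5 fell in KO, against 59.0% (29.3% higher, 29.6% lower). The recovery change differed between the genotypes, as tested by the interaction term, in 1 of 10, lower in KO, against 5.25% of all genes (2.89% higher, 2.36% lower). The libraries of the groups compared did not overlap in 1 of 10 genes after OGD (30.4% of all genes, 13.2% higher and 17.2% lower) and in 4 of 10 between genotypes after recovery (33.5% of all genes, 16.4% higher and 17.2% lower). From OGD to recovery they did not overlap in 9 of 10 genes in WT (67.1% of all genes, 31.6% higher and 35.5% lower) and in 5 of 10 in KO (61.2%, 29.9% higher and 31.3% lower). With so few genes, these shares are not read as a result about the list, whether near those of all genes or not. The results below are about the single genes. The median log2 fold change of the 10 genes was -0.06 between genotypes after OGD and -0.18 after recovery, where the medians of all genes were -0.01 and 0.01. It was -0.20 from OGD to recovery in WT and -0.32 in KO, beside -0.03 and 0 for all genes.

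**Figure D2:**
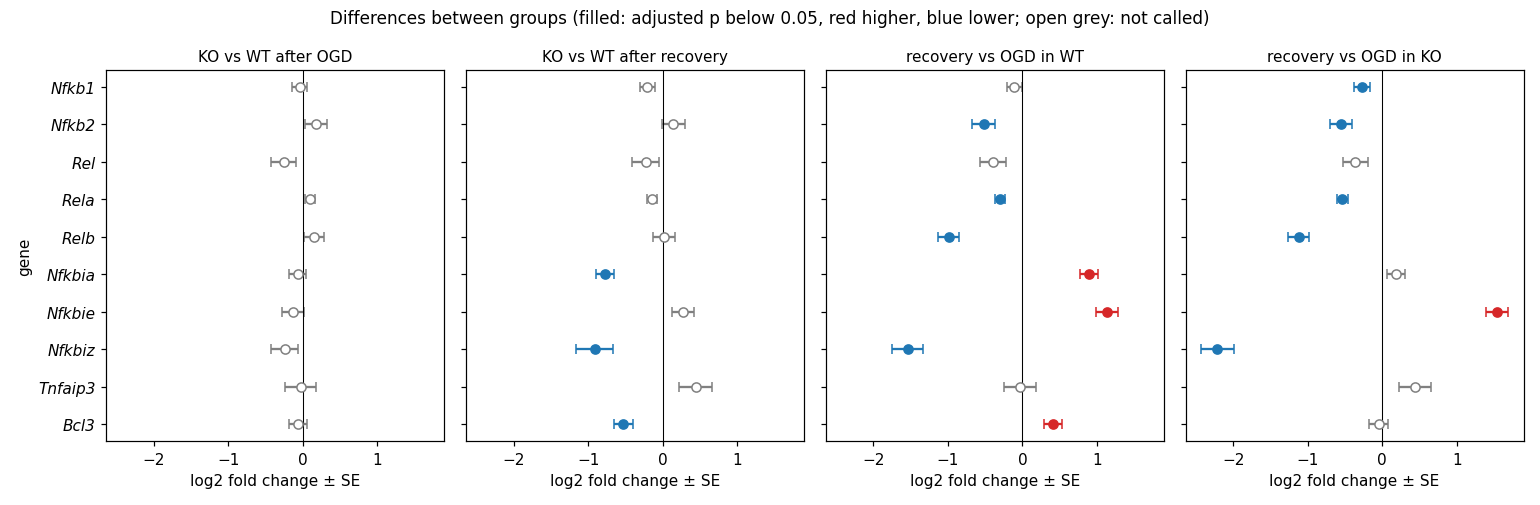
Log2 fold changes of the 10 genes in the 4 comparisons between groups. The horizontal axis is the log2 fold change with its standard error, filled points passed the adjusted p of 0.05 (red higher, blue lower) and open points did not. No gene is filled after OGD, and Nfkbia, Nfkbiz and Bcl3 are filled blue between genotypes after recovery.

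Among the subunits, transcripts of Rela and Relb fell from OGD to recovery in both genotypes. Rela (ENSMUSG00000024927.8, chr19:5637483-5648130, GRCm38) encodes p65, a subunit with a transactivation domain. Its level was 79.1, 76.0 and 73.4 CPM in WT-OGD and 60.2, 60.9 and 64.3 in WT-recovery. In KO it was 82.1, 83.3 and 77.95 after OGD and 56.1, 55.4 and 56.6 after recovery. In both genotypes every recovery library lay below every OGD library, as was the case for 35.5% of all genes in WT and 31.3% in KO. In the edgeR fit the log2 change came to -0.30 (SE 0.069, adjusted p = 0.00159) in WT and -0.53 (SE 0.068, adjusted p = 8.42e-06) in KO. The difference of these changes was -0.23 and did not pass the interaction test (adjusted p = 0.181). After recovery Rela was lower in all 3 KO libraries than in all 3 WT libraries, as were 17.2% of all genes, with a log2 difference of -0.14 that missed the threshold (adjusted p = 0.159).

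Relb (ENSMUSG00000002983.17, chr7:19606217-19629438) encodes the subunit that pairs with p52 in the non-canonical arm of the pathway. After OGD it had 42.4, 45.5 and 40.6 CPM in WT against 53.9, 37.0 and 51.1 in KO, so replicate 2 was the low one in KO. After recovery it had 23.4, 21.3 and 20.3 CPM in WT and 21.4, 26.0 and 18.4 in KO. Recovery libraries were below all OGD libraries in both genotypes, while the genotypes overlapped at both times. Without both libraries with muscle transcripts, or without those of high mitochondrial share, Rela and Relb kept their calls in both genotypes. The fall of Relb was 1.99-fold in WT (log2 -0.99, SE 0.143, adjusted p = 3.4e-05) and 2.17-fold in KO (log2 -1.12, SE 0.14, adjusted p = 7.92e-06) in the edgeR fit. It was the largest change among the 5 subunits in both genotypes in that fit.

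Nfkb2 (ENSMUSG00000025225.15, chr19:46304320-46312385), which encodes the precursor of p52, fell as well. Its level was 52.9, 49.99 and 53.9 CPM in WT-OGD, against 42.5, 33.4 and 34.2 in WT-recovery, while KO-OGD had 64.4, 53.6 and 59.2 and KO-recovery 40.8, 50.9 and 29.6. Within each genotype the OGD and recovery libraries did not overlap, but the 3 KO-recovery libraries were spread widely. On the log2 scale Nfkb2 changed by -0.52 in WT (SE 0.153, adjusted p = 0.00958) and -0.56 in KO (SE 0.15, adjusted p = 0.00555) in the edgeR fit. Without KO-recovery replicates 1 and 3, the libraries with muscle transcripts, the change in KO was -0.24 (adjusted p = 0.167), and with all libraries thinned to equal depth it was -0.37 (adjusted p = 0.0723). Exons of Nfkb2 share 830 bases with other annotated genes (AC114539.1 and Psd), so its counts are uncertain where reads could be assigned to either.

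Nfkb1 (ENSMUSG00000028163.17, chr3:135584655-135691547) encodes the precursor of p50, the usual partner of p65. In WT it had 83.6, 86.5 and 83.8 CPM after OGD and 72.6, 81.4 and 81.4 after recovery, a log2 difference of -0.11 (edgeR adjusted p = 0.385). In KO it had 84.1, 83.2 and 79.3 CPM after OGD and 61.5, 60.7 and 81.9 after recovery. Replicate 3 of KO-recovery thus lay among the OGD libraries, and the other 2 lay below every library of the other groups. The fall in KO of 0.27 on the log2 scale passed the test (SE 0.101, adjusted p = 0.0306) but did not pass when any of KO-OGD replicates 1 and 2 or KO-recovery replicates 1 and 2 was left out (adjusted p = 0.0767, 0.0626, 0.126 and 0.101). After thinning it was -0.21 (adjusted p = 0.115), and without both libraries of highest mitochondrial share -0.21 (adjusted p = 0.0791). Between genotypes after recovery the log2 difference was -0.21 (adjusted p = 0.165), and without KO-recovery replicate 3 it was -0.37 (adjusted p = 0.00276).

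Rel (ENSMUSG00000020275.9, chr11:23736847-23770970) encodes c-Rel, the subunit best known from lymphocytes and activated myeloid cells. After OGD its level was 24.2, 20.1 and 19.3 CPM in WT against 18.3, 17.8 and 17.1 in KO, lower in all 3 KO libraries. This was the only one of the 10 genes whose genotypes did not overlap after OGD, as 30.4% of all genes did not, and the log2 difference of -0.26 did not pass the edgeR test (adjusted p = 0.46). After recovery it had 15.3, 15.5 and 17.7 CPM in WT and 13.9, 8.98 and 18.0 in KO, where the genotypes overlapped. The log2 difference from OGD to recovery was -0.39 in WT (adjusted p = 0.0667) and -0.36 in KO (adjusted p = 0.0851). Neither passed in the main fit, and the call depended on the setting, also where no library was left out. In WT it passed without the filter on low counts (-0.44, adjusted p = 0.00204) and after thinning (-0.52, adjusted p = 0.0218). In KO it passed without that filter (-0.42, adjusted p = 0.00294). Leaving out KO-recovery replicate 3 gave -0.40 in WT (adjusted p = 0.016) and -0.62 in KO (adjusted p = 0.00263). Leaving out KO-recovery replicate 2 gave -0.40 in WT (adjusted p = 0.00904). The value in WT was -0.34 without both libraries of highest mitochondrial share (adjusted p = 0.0424). With both libraries with muscle transcripts left out, the change was -0.41 in WT and -1.01 in KO. Without KO-recovery replicate 3 the difference between genotypes after recovery was -0.47 (adjusted p = 0.0385).

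**Figure D3:**
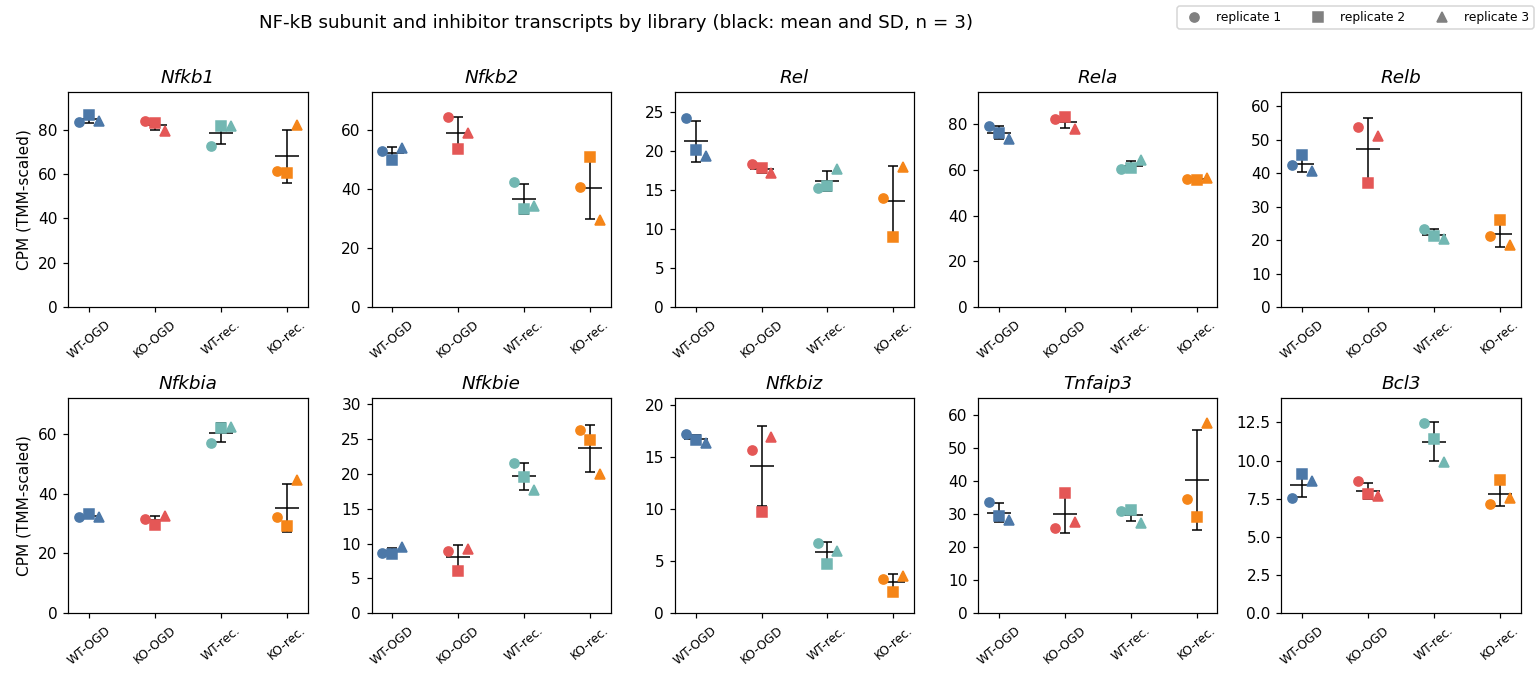
Level of each of the 10 genes in every library. The vertical axis is CPM with TMM scaling, from 0, symbols mark the replicate number and black lines the mean and SD of 3 libraries. Nfkbia is highest in WT-recovery (56.9 to 62.4 CPM), and Nfkbiz lowest in KO-recovery (2.04 to 3.59 CPM).

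Of the cytoplasmic inhibitors, Nfkbia rose with recovery in WT and was lower in KO than in WT after recovery. Nfkbia (ENSMUSG00000021025.8, chr12:55489410-55492647) encodes I-kappa-B alpha, the inhibitor that is broken down on stimulation and remade within the feedback loop. Its level was 32.3, 33.0 and 32.3 CPM in WT-OGD, against 56.9, 62.0 and 62.4 in WT-recovery, while KO-OGD had 31.4, 29.4 and 32.4 and KO-recovery 32.0, 29.1 and 44.4. The WT-recovery libraries lay above all other libraries, and KO-recovery replicate 3 lay between them and the rest. In WT the level after recovery was 1.86-fold that after OGD (log2 0.89, SE 0.118, edgeR adjusted p = 1.28e-05), and every WT-recovery library was above every WT-OGD library, as for 31.6% of all genes. In KO the log2 difference was 0.19 (SE 0.119, adjusted p = 0.19) and the groups overlapped.

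After recovery Nfkbia was 1.71-fold lower in KO than in WT (log2 -0.78, SE 0.121, edgeR adjusted p = 0.000394), lower in 3 of 3 KO libraries. This comparison and that of recovery with OGD in WT share the WT-recovery libraries. The difference was called under each of the 20 alternative settings, with log2 values from -1.06 to -0.67. The recovery change in KO was smaller than that in WT by 0.71 on the log2 scale (interaction, SE 0.167, adjusted p = 0.0242), and Nfkbia was the only one of the 10 genes with that call. Leaving out any 1 of 8 libraries ended it, with adjusted p from 0.0513 to 0.0719 and log2 values from -0.72 to -0.64: each WT-OGD replicate, KO-OGD replicates 1 and 3, WT-recovery replicates 2 and 3, and KO-recovery replicate 1. After thinning the interaction was -0.66 (adjusted p = 0.0792). Without KO-recovery replicate 2 the change in KO was 0.28 and passed the test (adjusted p = 0.0473). It also passed, at 0.29, without both libraries of highest mitochondrial share (adjusted p = 0.0324). Without both libraries with muscle transcripts the change in KO had the other sign, -0.115, with KO-recovery replicate 2 alone in its group.

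Nfkbie (ENSMUSG00000023947.8, chr17:45555703-45563169) encodes I-kappa-B epsilon, an inhibitor that acts later in the feedback. It rose in both genotypes. Its level was 8.71, 8.50 and 9.44 CPM in WT-OGD, against 21.6, 19.6 and 17.8 in WT-recovery, while KO-OGD had 8.95, 6.11 and 9.19 and KO-recovery 26.3, 24.8 and 19.9. All 6 recovery libraries lay above all 6 OGD libraries, and the genotypes overlapped at both times. The rise was 2.2-fold in WT (log2 1.14, SE 0.149, adjusted p = 1.15e-05) and 2.91-fold in KO (log2 1.54, SE 0.147, adjusted p = 3.94e-07) in the edgeR fit. The difference between these changes, 0.41 on the log2 scale, did not pass (adjusted p = 0.288), nor did that between genotypes after recovery (log2 0.27, adjusted p = 0.2).

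Per length, Nfkbie stood higher against Nfkbia in KO-recovery than in the other groups, while WT-recovery overlapped WT-OGD. Nfkbie amounted to 14.3%, 13.6% and 15.4% of the Nfkbia level per kilobase in WT-OGD, against 15.1%, 10.99% and 15.0% in KO-OGD. In recovery the share was 20.1%, 16.7% and 15.0% in WT and 43.4%, 45.0% and 23.7% in KO. The 3 KO-recovery libraries lay above all others, with replicate 3 nearest to them. This ratio was chosen after the values were seen and was not tested. The summed level per kilobase of Nfkbia, Nfkbie and Tnfaip3 over that of the 5 subunits was 0.479 ± 0.00681 (SD, n = 3) in WT-OGD, 0.431 ± 0.0217 in KO-OGD, 1.14 ± 0.0505 in WT-recovery and 0.882 ± 0.186 in KO-recovery. It was 0.841, 0.720 and 1.08 in the single KO-recovery libraries, just short of the lowest WT-recovery library at 1.09. The sum was mostly Nfkbia: without it the means were 0.125, 0.112, 0.250 and 0.334, with KO-recovery the higher of the recovery groups. The size of these ratios depends on the length used. With the longest transcript as length, Nfkb1 in WT-recovery was at 18.9 CPM per kilobase in place of 6.51, and Nfkbia at 38.3 in place of 37.5. On that scale the summed subunits exceeded the summed inhibitors in WT-recovery.

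**Figure D4:**
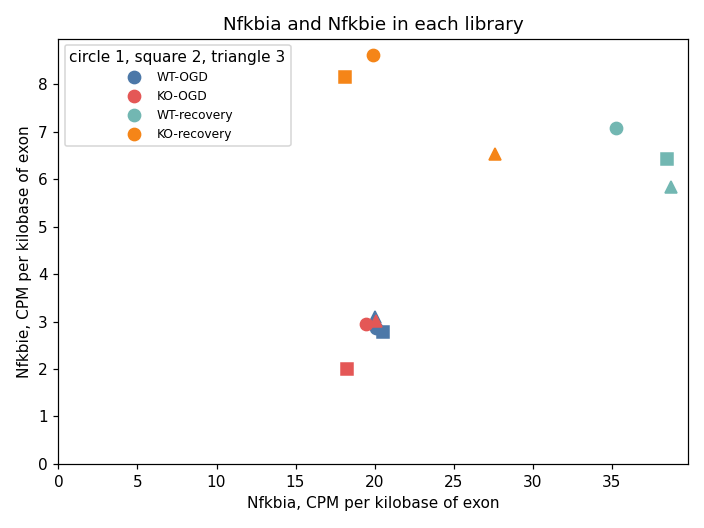
Nfkbia against Nfkbie in each library. Both axes give CPM per kilobase of exon from 0, colours mark the group and symbols the replicate number. The 6 OGD libraries sit together at the lower left, WT-recovery lies to the right, and KO-recovery lies high at the left with replicate 3 between them.

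The nuclear members of the I-kappa-B family, Nfkbiz and Bcl3, were both lower in KO than in WT after recovery, and they took opposite courses from OGD to recovery in WT. Nfkbiz (ENSMUSG00000035356.17, chr16:55811375-55838899) encodes I-kappa-B zeta, a cofactor needed for a class of secondary response genes such as Il6 and Lcn2. Its level was 17.1, 16.6 and 16.3 CPM in WT-OGD, against 6.74, 4.76 and 5.99 in WT-recovery, while KO-OGD had 15.7, 9.73 and 16.9 and KO-recovery 3.27, 2.04 and 3.59. Every recovery library was below every OGD library, and every KO-recovery library was below every WT-recovery library. From OGD to recovery Nfkbiz fell 2.91-fold in WT (log2 -1.54, SE 0.209, adjusted p = 2e-05) and 4.64-fold in KO (log2 -2.21, SE 0.219, adjusted p = 7.78e-07) in the edgeR fit. The difference of these changes was -0.67 (SE 0.305) and did not pass (adjusted p = 0.226), while without KO-OGD replicate 2 it was -0.88 (adjusted p = 0.0424).

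After recovery Nfkbiz was 1.88-fold lower in KO (log2 -0.91, SE 0.246, edgeR adjusted p = 0.0155). The call ended without WT-recovery replicate 3 (log2 -0.89, adjusted p = 0.0532) or KO-recovery replicate 2 (log2 -0.75, adjusted p = 0.0501). Without both libraries of highest mitochondrial share it was -0.64 (adjusted p = 0.127), and with all libraries thinned to the depth of the shallowest it was -0.82 (adjusted p = 0.0657). The direction was the same in all of these.

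Bcl3 (ENSMUSG00000053175.17, chr7:19808462-19822770) encodes a nuclear cofactor that binds p50 and p52 dimers. Its level was 7.54, 9.12 and 8.65 CPM in WT-OGD, against 12.4, 11.4 and 9.91 in WT-recovery, while KO-OGD had 8.64, 7.79 and 7.68 and KO-recovery 7.19, 8.74 and 7.55. WT-recovery libraries lay above all others, and the other 3 groups overlapped. In the edgeR fit Bcl3 rose in WT by 0.41 on the log2 scale (SE 0.126, adjusted p = 0.0117) and was 1.44-fold lower in KO than in WT after recovery (log2 -0.53, SE 0.133, adjusted p = 0.0105). In KO the log2 difference from OGD to recovery was -0.05 (adjusted p = 0.761), but the interaction of -0.46 did not pass (adjusted p = 0.155), so a difference in the recovery change is not shown. The rise in WT was 0.25 after thinning (adjusted p = 0.292) and 0.36 without the filter on low counts (adjusted p = 0.0565), and it was not called without WT-OGD replicate 1 (adjusted p = 0.0532) or WT-recovery replicate 1 (adjusted p = 0.0543). The difference between genotypes was not called without KO-recovery replicate 1 (log2 -0.47, adjusted p = 0.0504) and was -0.36 (adjusted p = 0.21) without both libraries with muscle transcripts. Exons of Bcl3 share 161 bases with the antisense gene Gm16175, so its counts are uncertain too.

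Tnfaip3 (ENSMUSG00000019850.11, chr10:19000910-19015657) encodes A20, which removes or remodels ubiquitin chains upstream of the kinase complex. It passed the test in none of the comparisons. Its level was 33.8, 29.3 and 28.3 CPM in WT-OGD, against 31.1, 31.1 and 27.4 in WT-recovery, while KO-OGD had 25.9, 36.5 and 27.5 and KO-recovery 34.6, 29.0 and 57.5. KO-recovery replicate 3 was the highest of the 12 libraries, and the groups overlapped in each of the 4 comparisons. The log2 difference was -0.03 from OGD to recovery in WT (edgeR adjusted p = 0.916) and 0.44 in KO (adjusted p = 0.0926). The latter was 0.61 without KO-OGD replicate 2 (adjusted p = 0.0378) and 0.60 without KO-recovery replicate 2 (adjusted p = 0.0212). It was 0.61 without both libraries of highest mitochondrial share (adjusted p = 0.0264). Without both libraries with muscle transcripts, KO-recovery replicate 3 among them, it was -0.069. Between genotypes after recovery the log2 difference was 0.44 (adjusted p = 0.174), and without the filter on low counts it was 0.46 (adjusted p = 0.000633). Without both libraries with muscle transcripts that difference was -0.045.

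KO-recovery replicate 3 also held the highest level of Nfkbia, Nfkb1 and Rel and the lowest of Nfkb2, Relb and Nfkbie of its group. Among the libraries of KO-recovery it had the lowest mitochondrial share, 4.72%, against 8.23% and 10.5% in replicates 1 and 2. Its Acta1 level was near that of replicate 1. Whether these differences bear on the levels was not tested.

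Markers of other cells differed between genotypes in the contrasts in which these genes were compared. Summed over 11 astrocyte markers, the level after OGD was 119 to 184 CPM in WT against 40.5 to 66.3 in KO, and after recovery 175 to 202 in WT against 59.2 to 99.0 in KO. Of these markers 10 of 11 were called lower in KO after OGD and 8 of 11 after recovery. After recovery 8 monocyte markers summed to 803 to 1171 CPM in WT and 1390 to 1555 in KO (2 of 6 tested higher, 0 lower), with Plac8 at 0 in all groups but KO-recovery. Summed over 10 neutrophil markers, the level was 406 to 543 CPM in WT-recovery and 744 to 897 in KO-recovery (3 of 5 tested higher, 0 lower), with S100a9 and Retnlg at 0 in all groups but KO-recovery. Macrophages of the brain borders had 8 markers, at 922 to 1250 CPM in WT-recovery and 1307 to 1441 in KO-recovery (2 of 8 higher, 0 lower). Over 12 markers of muscle, cartilage and connective tissue the sums were 33.3 to 110 CPM in WT-recovery and 20.3 to 436 in KO-recovery (5 of 11 tested higher, 0 lower), with Actc1 at 0 in all groups but KO-recovery. Plac8, S100a9, Retnlg and Actc1 did not pass the filter on low counts and were not tested. Summed over 12 neuron markers, the level after OGD was 26.7 to 39.6 CPM in WT against 9.10 to 15.4 in KO, and after recovery 83.7 to 107 against 19.2 to 53.5, with 4 of 11 tested lower in each and 0 higher. Over 10 markers of the oligodendrocyte lineage the level after recovery was 201 to 246 CPM in WT and 151 to 177 in KO (4 of 10 lower, 0 higher). Microglial markers differed between genotypes as well. Of 11 tested, 0 were higher and 3 lower in KO after OGD (27.3%, beside 7.49% of all genes called). After recovery 3 were higher and 1 lower (36.4%, beside 22.2% of all genes). The part of all these markers in the differences of Nfkbia, Nfkbiz and Bcl3 was not tested. In these bulk samples fewer cells of a type and less RNA per cell cannot be told apart.

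Markers of other cells moved with recovery too, where the rises and falls above were called. The sums over oligodendrocyte lineage markers were 61.2 to 65.7 CPM in WT-OGD, below the range given for WT-recovery (10 of 10 higher), and 67.0 to 83.0 in KO-OGD (8 of 10 higher with recovery). Neutrophil markers summed to 83.6 to 94.5 CPM in WT-OGD and to at most 83.7 CPM in KO-OGD, and in each genotype 3 of the 5 tested rose with recovery, while 2 fell in WT and 1 in KO. Monocyte markers summed to 433 to 485 CPM in WT-OGD and 328 to 392 CPM in KO-OGD, and 5 of 6 tested rose in each genotype. Of the neuron markers 8 of 11 tested rose and 1 fell in WT, and 9 rose in KO. Markers of border macrophages rose in 6 of 8 in each genotype, with 1 lower in WT. Of the astrocyte markers 3 of 11 rose and 2 fell in WT and 4 rose in KO. Of the muscle, cartilage and connective tissue markers 3 of 11 tested rose in WT and 11 of 11 in KO. Of all genes 26.9% rose and 29.9% fell in WT, and 29.3% rose and 29.6% fell in KO. The astrocyte markers thus rose about as often as all genes, as did those of muscle, cartilage and connective tissue in WT. Of the microglial markers 6 of 11 tested rose and 3 fell with recovery in WT, and 5 rose and 4 fell in KO. The part of all these markers in the recovery changes of the 10 genes was not tested. Xist was nearly absent from WT-recovery alone. The comparison of genotypes after recovery, the recovery change in WT and the interaction therefore cannot be told apart from the difference that Xist marks. The genotype comparison after OGD and the recovery change in KO also ran along differences in Xist. It was at 151 to 159 CPM in WT-OGD, 231 to 244 in KO-OGD and 312 to 354 in KO-recovery. The bearing of these differences on the 10 genes was not tested.

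The transcripts whose levels followed those of the members most closely over the 12 libraries were named by Pearson correlation of log2 CPM over 15265 genes, as a description in which the points share 4 groups of 3 libraries. For Nfkbiz they were the amino acid transporter Slc7a5 (r = 0.982), the transcriptional coactivator Wwtr1 (0.98) and Nol7 (0.978). For Nfkbie they were Ccn3 (0.99), Ksr1 (0.989) and Rasgrp4 (0.986). For Relb they were the mitochondrial enzyme genes Acadl (0.992) and Pdhb (0.991), and Ccdc9 (0.988). For Nfkbia they were the chemokine Ccl17 (0.974), Fut7 (0.974) and Qdpr (0.972).

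Other genes of the pathway were counted from lists. Of 5 further genes of the I-kappa-B family and its partners, 1 rose (Nfkbid) and 3 fell with recovery in each genotype, beside 56.8% of all genes called in WT and 59.0% in KO. Nfkbid encodes another nuclear member of the family, I-kappa-B NS, and its log2 change was 1.64 (SE 0.102, adjusted p = 5.38e-09) in WT and 2.18 (SE 0.099, adjusted p = 2.3e-10) in KO. Unlike for Nfkbiz and Bcl3, its level after recovery was higher in KO, 1.61-fold (log2 0.69, SE 0.097, adjusted p = 0.000194), and the interaction of 0.54 passed (adjusted p = 0.0377). Without both libraries with muscle transcripts that interaction was 0.52 (adjusted p = 0.114). Nfkbib, which encodes I-kappa-B beta, fell by 1.84 in WT and by 2.00 in KO on the log2 scale. Nfkbil1, an I-kappa-B-like gene, fell by 1.45 and by 1.59. Between genotypes after OGD 0 of the 5 were called in the edgeR fit (7.49% of all genes), 0 at an unadjusted p below 0.05 and 0 by DESeq2.

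Of 16 upstream receptors, 8 rose and 1 fell with recovery in WT, and 9 rose and 0 fell in KO, which is 56.2% of the list in each, near the 56.8% and 59.0% of all genes. The Toll-like receptor gene Tlr1 rose most by 1.68 (SE 0.177) in WT and 1.98 (SE 0.173) in KO on the log2 scale, and Tnfrsf11a, the receptor for RANK ligand, rose by 0.83 and 1.01. The interleukin 1 receptor gene Il1r1 fell by 0.67 in WT. Between genotypes after recovery 5 were higher and 2 lower in KO, 43.8% against 22.2% of all genes. Without both libraries with muscle transcripts 3 were higher and 1 lower, and without those of high mitochondrial share 2 were higher and 1 lower. Higher in the fit of all libraries were Tlr1 (log2 0.56) and the lipopolysaccharide co-receptor Cd14 (0.55), and lower were the TNF receptor gene Tnfrsf1b (-0.52) and Tlr2 (-0.42). After OGD 0 were called (7.49% of all genes), 3 had an unadjusted p below 0.05 and DESeq2 called 0.

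The adaptors, ubiquitin ligases and kinases that lead to the I-kappa-B kinase moved in both directions. With recovery 8 of 28 rose and 11 fell in WT, and 8 rose and 12 fell in KO, which is 67.9% and 71.4% of the list against 56.8% and 59.0% of all genes. Traf5, an adaptor of TNF-type receptors, rose by 0.99 in WT and 1.05 in KO on the log2 scale. Map3k14, the kinase NIK that starts the non-canonical arm, rose by 0.76 in WT and 1.25 in KO. Tab3, a partner of the kinase TAK1, fell by 0.96 in WT and by 0.90 in KO, and Chuk, the kinase subunit IKK alpha, fell by 0.70 and by 0.78. After recovery 4 were higher in KO and 1 lower (17.9% against 22.2% of all genes), or 1 and 1 without the libraries of high mitochondrial share, with Malt1 at 0.67 and Rnf31 at 0.45 above and Irak4 at -0.31 below. After OGD 0 were called (7.49% of all genes), 1 had an unadjusted p below 0.05 and DESeq2 called 0.

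Of 17 other negative regulators, 5 rose and 6 fell with recovery in WT, and 8 rose and 7 fell in KO, which is 64.7% and 88.2% of the list against 56.8% and 59.0% of all genes. In KO 4 rose and 8 fell without both libraries with muscle transcripts. Tnip3, a partner of A20, rose by 1.64 in WT and 2.04 in KO on the log2 scale, while the phosphatase gene Dusp1 fell by 2.38 and by 2.09. Between genotypes 0 were higher and 2 lower in KO after OGD, 11.8% of the list against 7.49% of all genes (0.966% higher, 6.52% lower). The 2 were Dusp1 (-0.49, SE 0.096, adjusted p = 0.00569) and Pdlim2 (-0.46, SE 0.133, adjusted p = 0.0482) in the edgeR fit. Pdlim2 was not called there without the libraries of high mitochondrial share (adjusted p = 0.0635). After recovery 3 were higher and 4 lower (41.2% against 22.2% of all genes), with Socs3, an inhibitor of cytokine signalling, at 0.51 and Zc3h12a at 0.41 above, and the A20 complex genes Rnf11 and Itch at -0.39 and -0.38 below. The recovery change was larger in KO for Pdlim2 by 0.83 (adjusted p = 0.0253) and for Socs3 by 0.55 (adjusted p = 0.0195) in the interaction. Pdlim2 lost this call without both libraries with muscle transcripts (adjusted p = 0.112) and Socs3 without those of high mitochondrial share (adjusted p = 0.066).

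The list of induced NF-kB targets, cytokine, chemokine and survival genes, held 34 genes of which 32 were tested. With recovery 14 rose and 5 fell in WT, and 13 rose and 11 fell in KO, which is 59.4% and 75% of those tested against 56.8% and 59.0% of all genes. In KO 12 rose and 4 fell without both libraries with muscle transcripts. Ccl22, a chemokine of activated myeloid cells, rose by 5.78 (SE 0.53, adjusted p = 7.35e-06) in WT on the log2 scale, with a difference of 0.72 (SE 0.592, adjusted p = 0.321) in KO. After recovery it was 18.9-fold lower in KO (log2 -4.24, SE 0.508, adjusted p = 0.000347), and the interaction was -5.06 (adjusted p = 0.00689) in the edgeR fit. Without both libraries with muscle transcripts the interaction was -5.63 and was not called (adjusted p = 0.0636). Saa3, an acute phase gene, went the other way between genotypes: after recovery it was 4.85-fold higher in KO (log2 2.28, SE 0.221, adjusted p = 4.29e-05), and its interaction was 2.36 (adjusted p = 0.00309). In all 9 targets were higher and 5 lower in KO after recovery, 43.8% of those tested against 22.2% of all genes, among them Ccl5 at 1.90 and the cyclooxygenase gene Ptgs2 at -1.92. After OGD 1 was higher (Ccl4, 0.67) and 3 were lower, 12.5% of those tested against 7.49% of all genes (0.966% higher, 6.52% lower). The largest differences were in the iron-binding gene Lcn2 (-2.12) and the adhesion gene Vcam1 (-1.70). Targets moved in both directions at once in both genotype comparisons. Nfkbib, Nfkbil1, Map3k14, Rnf31, Irak4, Dusp1, Vcam1 and Traf5 overlap other annotated genes and their counts are uncertain.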

How the data were processed

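Gene expression was measured by RNA sequencing in 12 libraries of sorted microglia, 3 in each of 4 groups. The deposited values are raw counts of reads per gene, not normalized, made with HISAT2 and featureCounts on GRCm38, per the submitters' processing notes. Not given in the sources used here were their versions, the annotation and the counting options, so genes that overlap other genes are uncertain. The library kit keeps strand per the labels, while the molecule field named polyA RNA. Of 55421 identifiers 55240 matched GENCODE M21 (GRCm38) without the version number and 54673 with it, and 181 did not match. No column of counts was left out.

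Counts were fitted in R 4.3.3 with edgeR 4.0.16 (filterByExpr, 18842 genes kept, TMM factors, glmQLFit with robust dispersions, glmQLFTest). All 12 libraries entered 1 model with 1 mean per group and no covariate, and p-values of every gene tested were adjusted together (Benjamini-Hochberg), with calls at 0.05. The biological coefficient of variation common to all genes came to 0.119. Standard errors are the log2 fold change over the root of its F statistic. CPM are counts scaled to TMM-adjusted library sizes, and per-kilobase levels divide them by the union of exons, with the longest transcript as an alternative. DESeq2 1.42.0, other scaling, no filter, only the libraries compared, a replicate block, left-out libraries and thinning to 9885259 counts were the alternatives. The scripts were tested on simulated data. Precision at low counts was limited most in the recovery libraries, which had the lowest totals.

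The 10 genes, the lists and the alternatives were chosen with earlier results of these data known. All 10 genes are named, and of each list at most 2 called genes per direction and comparison, by the size of the change. A chi-square comparison of replicates (genes of 20 counts or more) gave 6.66 to 60.2 per degree of freedom over the pairs, above sampling noise, so each library counted once.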

Additional observations from a re-analysis of the deposited data

Results flagged for a closer look

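The recovery change of Nfkbia differed between the genotypes. On the log2 scale it was 0.89 in WT and 0.19 in KO, a difference of -0.71 (SE 0.167) that passed the interaction test of edgeR's quasi-likelihood fit (adjusted p = 0.0242). All 3 WT-recovery libraries (56.9 to 62.4 CPM) lay above the WT-OGD libraries (32.3 to 33.0 CPM). In KO the recovery libraries (29.1 to 44.4 CPM) overlapped those after OGD (29.4 to 32.4 CPM). Over 19 alternatives the difference lay between -0.99 and -0.60, with adjusted p from 8.53e-05 to 0.0792, and 9 of them ended the call. WT-recovery was the group almost without Xist, and the bearing of that on Nfkbia was not tested.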

How the results depend on the processing

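Over 20 alternatives no called difference of the 10 genes turned its direction. Of 17 calls 11 held throughout. Members called between genotypes after recovery were 3, but 5 without both KO-recovery libraries with muscle transcripts (Nfkb1, Nfkb2 and Rel joined, Bcl3 left; the lone KO-recovery library is assumed to vary like the other groups), 1 with libraries thinned to equal depth (Nfkbia), and 2 to 5 with 1 library left out. For the interaction they were 2 without the filter on low counts (Nfkbiz joined), 0 after thinning, and 0 to 2 with 1 library left out. Genes called between genotypes after OGD, 1411 in all (182 higher), were 2148 without the filter (518 higher), 390 after thinning and 524 to 1742 with 1 library left out. They were 1360 (250 higher) with RLE factors, 1769 (537 higher) with DESeq2 and 1919 (555 higher) with only the libraries compared. After recovery they were 2756 with only the libraries compared, 2150 after thinning and 2653 to 5279 with 1 library left out. For the interaction they were 1980 without the filter, 325 after thinning, 1542 with DESeq2 and 479 to 1770 with 1 library left out. The cause was not tested. Thinning left fewer counts and leaving out libraries left fewer samples, but in the latter the number called rose as well as fell. The highest numbers (1742, 5279 and 1770) all came without KO-recovery replicate 3. Members called with 1 library left out were 0 between genotypes after OGD, 6 to 8 for recovery in WT and 5 to 7 in KO, with 9512 to 11452 and 9979 to 11717 genes.

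No pairing of the samples by replicate number was seen. Over 18 pairs of same-numbered libraries deviations correlated at -0.228 to 0.156, 1 above 0.1, and 2 of 12 libraries correlated best with their own number. Libraries that stood apart within their group can hide a pairing in such deviations, so it is not excluded. With a replicate block the interaction called 657 genes in place of 989, and no member's call changed. Thinning, done once at random, ended the genotype calls of Nfkbiz and Bcl3 after recovery (adjusted p = 0.0657 and 0.146) and the interaction of Nfkbia. It also ended the rise of Bcl3 in WT and the falls of Nfkb1 and Nfkb2 in KO, so that 4 members were called for recovery in KO in place of 6. The fall of Rel in WT gained a call (log2 -0.52, adjusted p = 0.0218), and 7 members were called for recovery in WT with and without thinning. Values without the libraries with muscle transcripts, or without those of high mitochondrial share, for the pathway lists and their genes were chosen after seeing the data.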
